A study of Mus musculus with 5 samples.

Results

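The Ago-binding sites of the mitochondrial genome (chrM) in developing mouse liver were described from Ago HITS-CLIP, in which ultraviolet light crosslinks RNA to the Argonaute (Ago) proteins that carry miRNAs, and the RNA recovered with Ago antibodies is sequenced. Members were the entries of the miRNA-target tables whose chromosome is chrM, and clusters whose listed sites overlap on a strand were counted as 1 cluster. There were 294 such clusters among 572237 in all, with 68 of 208193 at e12.5 and 47 of 81121 at e15.5, then 13 of 76948 at e18.5, 51 of 124781 at P7 (postnatal day 7) and 115 of 81194 in the adult (6 to 8 weeks). Values said below to be in stage order run from e12.5 over e15.5 and e18.5 to P7 and the adult. Livers were from mice labelled C57BL/6 (C57BL/6J in the study's methods), exposed 3 times to 254 nm light at 0.2 J/cm2. Ago2 antibodies were used at the embryonic stages, and Ago2 with Ago1 antibodies at P7 and in the adult, so antibody and stage cannot be told apart. Each stage has 1 table, called a library here, with no replicates in the labels, so values of different stages have no replicate check and no test was made between stages. The study's supplement also names a further e18.5 library as a replicate, which the labels do not separate and which was not analysed here on its own.

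The mitochondrial genome is a small circle of DNA that is transcribed on both strands into long precursors. The precursors are cut, mostly at the tRNAs that lie between the other genes, into mRNAs for subunits of the respiratory chain and the ATP synthase, into the rRNAs of the mitochondrial ribosome and into its tRNAs. These transcripts are made and translated inside the organelle, while Ago and miRNAs are best known from the cytoplasm, and mitochondrial mRNAs have almost no untranslated sequence. Old copies of mitochondrial DNA also lie in the nuclear chromosomes, so that a short read from such a stretch fits more than 1 place in the genome. The mouse genome (GRCm38, chrM of 16299 bases) holds 37 genes, with 13 mRNAs, 2 rRNAs and 22 tRNAs, of which 28 are on the plus strand and 9 on the minus strand.

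A site is a place in a cluster that pairs with the seed of a miRNA, bases 2 to 8 from its 5′ end. An 8mer site pairs with all of the seed and has an A opposite the first base of the miRNA, a 7mer-m8 site lacks that A, a 7mer-A1 site has the A but lacks the pair at base 8, and a 6mer site lacks both. Sites are shown here for 6 of the 7 positions that had a cluster in every library, since they are the ones that recurred. The following 22-base windows of GRCm38 are written 5′ to 3′ on the plus strand, and the last base lies opposite the first base of the miRNA. Capitals mark the seed match.
mt-Tm, chrM:3846-3867, miR-21a-5p: gtaaggtcagctaatTAAGCTA
mt-Th, chrM:11558-11579, miR-27b-3p: acaaaaaacattagACTGTGAA
mt-Rnr1, chrM:267-288, let-7c-5p: agtttgactaagttaTACCTCt
mt-Rnr2, chrM:1332-1353, miR-196b-5p: ccgaaaccaaacgagCTACCTA
mt-Rnr2, chrM:1701-1722, miR-340-5p: gggttaatctataaCTTTATAg
mt-Rnr2, chrM:2056-2077, miR-701-5p: agggactagcatgaaCGGCTAA
A further pair of let-7 sites is shown because in the adult they lay in the clusters with more reads than the recurring one.
mt-Rnr1, chrM:635-656, let-7c-5p: cgataaaccccgctCTACCTCA
mt-Cytb, chrM:15053-15074, let-7c-5p: aatacctttccttcaTACCTCA
The mature miRNAs of these sites are given as RefSeq lists them for GRCm38, with the seed in capitals, and of the 31 miRNAs looked up 30 were found there.
let-7c-5p: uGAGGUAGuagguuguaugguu
miR-21a-5p: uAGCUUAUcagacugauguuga
miR-27b-3p: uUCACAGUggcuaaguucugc
miR-196b-5p: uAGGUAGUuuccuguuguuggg
miR-340-5p: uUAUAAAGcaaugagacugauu
miR-701-5p: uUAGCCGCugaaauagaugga

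Parts of chrM have near-identical nuclear copies. Stretches of at least 100 bases with at least 97% identity to a nuclear chromosome were found at 6 places and covered 7469 bases of chrM. The longest match, to chromosome 1, ran from 6390 to 11042 with 99.9% identity. All 28 adult clusters and all 18 clusters of e12.5 whose sites lay in this stretch (each list counted on its own) had a counterpart at the copy with the same read number, as did the 7 of e15.5 and the 3 of P7. A match to chromosome 2 from 4441 to 7699, which holds mt-Ta and mt-Co1, had 97.4% identity. Here only 10 of 20 clusters at e12.5, 2 of 6 at e15.5, 3 of 5 at P7 and 11 of 19 in the adult had such a counterpart. The stretch from 11514 to 11642, which holds all of mt-Th, was identical to a part of chromosome 2, and the mt-Th cluster had a counterpart there with the same read number in each library. By gene, 7 of the 13 mRNAs and 11 of the 22 tRNAs lay wholly in such stretches, and mt-Rnr1, mt-Tm, mt-Nd1, mt-Nd5, mt-Nd6 and mt-Cytb lay wholly outside them. Clusters that touched such a stretch held 34.9%, 15.8%, 13.9%, 30.7% and 30.4% of chrM reads in stage order. The values below for mt-Th, for the mRNAs from mt-Co2 to mt-Nd4l and for the e12.5 cluster of mt-Nd4 are therefore values of the sequence, at either place. Those of mt-Ta, mt-Co1, mt-Nd2 and mt-Rnr2 may be so in part. In the stretch of mt-Rnr2 from 1509 to 1881 a counterpart was found for 5 of 8 clusters at e12.5, 4 of 5 at e15.5, 1 of 1 at e18.5, 4 of 5 at P7 and 2 of 3 in the adult.

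The reads on chrM were highest in the adult library and lowest at e18.5. The read number of a cluster, the highest number of reads the authors list for it, summed over chrM to 6145, 5026, 567, 1987 and 14079 in stage order. Scaled to 1000000 summed cluster reads of the table (RPM), this came to 137 at e12.5 and 304 at e15.5, then 43.6 at e18.5, 120 at P7 and 566 in the adult. As a share of clusters, chrM held 0.0327% at e12.5 (Wilson 95% interval 0.0258 to 0.0414) and 0.0579% at e15.5 (interval 0.0436 to 0.0770). It held 0.0169% at e18.5 (interval 0.00987 to 0.0289), 0.0409% at P7 (interval 0.0311 to 0.0537) and 0.142% in the adult (interval 0.118 to 0.170). Without stretches with a nuclear copy the share was 0.0168% at e12.5, 0.0382% at e15.5 and 0.0838% in the adult. With the lists of each embryonic table added, the adult interval over all of chrM lay above the other 4, and the intervals cover counting error only. With the first list alone the share was higher at e12.5 and e15.5, and no interval was made for that setting.

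The order of the extremes was the same on other scales, but the distances were not. Clusters under a miRNA gene held 53.5%, 51.7%, 50.4%, 70.6% and 79.9% of summed reads in stage order. With these left out of the total, chrM had 295, 630, 87.9, 409 and 2812 RPM, so that the adult stood 9.54-fold above e12.5 in place of 4.13-fold. Reads on marker genes of 2 cell types also differed between the libraries. The 6 hepatocyte markers (Alb, Apoa1, Apob, Ttr, Trf and Afp) together had 1415, 4164, 7257, 9021 and 9070 RPM in stage order. The 6 erythroid markers (Hbb-bs, Hbb-bt, Hba-a1, Hba-a2, Hbb-y and Slc4a1) had 35598, 50314, 50531, 18117 and 880.2 RPM, with Hba-a1 and Hba-a2 counted once because these near-identical genes had almost the same value in each library. In the adult, 5 of the 6 markers of either list were listed, and in the other libraries all 6. Single markers did not all move with these sums. From e15.5 to e18.5 Hba-a1 rose from 37114 to 44948 RPM, while Hbb-bs, Hbb-bt, Hbb-y and Slc4a1 fell. From P7 to the adult Alb rose from 3816 to 6248 RPM, while Apoa1, Apob, Ttr, Trf and Afp fell. The part of cell makeup in the chrM reads was not tested, and more RNA per cell cannot be told apart from more cells of a type.

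A chrM cluster was typically deeper than a cluster elsewhere in the same library. The median cluster on chrM had 44.5, 39, 43, 20 and 25 reads in stage order, against 25, 28, 18, 14 and 20 for the other clusters. The most covered cluster held 15.1%, 19.5%, 16.6%, 20.03% and 24.4% of chrM reads. It lay in mt-Rnr2 at e12.5 and e15.5, in mt-Tm at e18.5 and in the adult, and in mt-Th at P7.

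**Figure D1:**
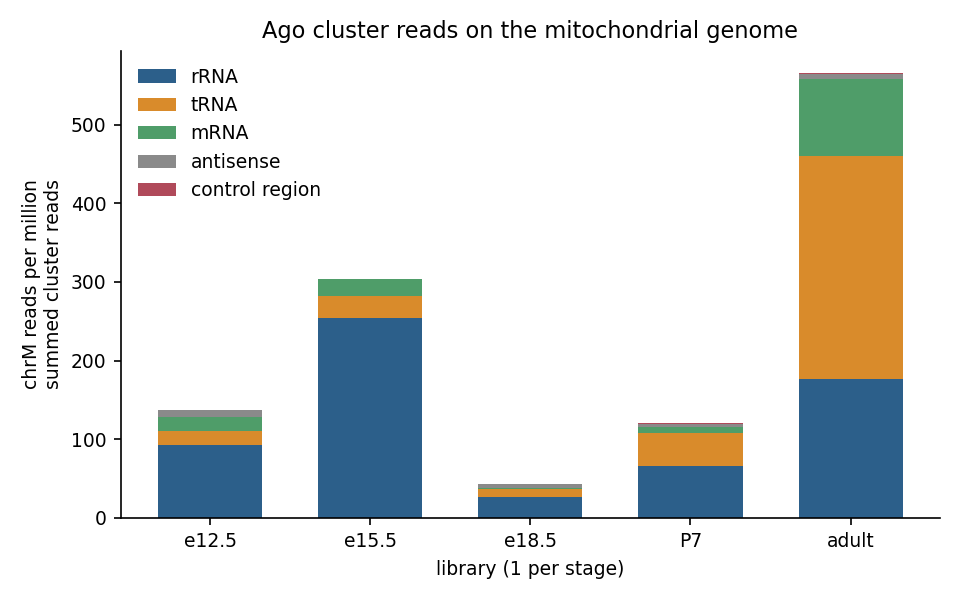
Reads of chrM clusters in each library, in RPM (vertical axis), stacked by the kind of gene the cluster lies in (1 library per stage, no error bars). The adult bar reaches 566 and is mostly tRNA and rRNA, and the e18.5 bar reaches 43.6.

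Nearly all of the signal was on the plus strand, which carries both rRNAs and every mRNA except mt-Nd6. Plus-strand clusters held 90.2%, 98.7%, 95.6%, 94.5% and 93.7% of chrM reads in stage order. Over the 5 libraries, 262 clusters were on the plus strand and 32 on the minus strand. Of the minus-strand clusters, 19 lay in a minus-strand gene, 11 opposite a plus-strand gene and 2 in the noncoding control region, where transcription starts. The control region had no cluster in the embryonic libraries, 1 at P7 with 15 reads and 2 in the adult with 28 reads together. Counting both strands, 23 clusters were antisense to a gene and no cluster lay between genes. The antisense share of chrM reads was 6.07%, 0.318%, 11.8%, 3.72% and 1.18% in stage order. The target fragments listed for the sites covered 10.05%, 6.25%, 1.64%, 7.77% and 17.4% of the plus strand.

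The share of the kinds of RNA differed between the libraries. In stage order, rRNA held 67.4%, 83.5%, 59.8%, 54.6% and 31.2% of chrM reads. tRNA held 12.9%, 9.03%, 25.6%, 35.4% and 50.1%. mRNA held 13.6%, 7.12%, 2.82%, 5.54% and 17.3%. The tRNA shares depended on the processing. With the highest cluster of each gene alone they were 29.6%, 20.99%, 38.7%, 65.3% and 68.9%, and with the second list alone e18.5 had 7.58%, below both earlier stages. The tRNA share was highest in the adult under each of these settings, and the number of mRNAs with a cluster was 9, 9, 1, 4 and 13 of 13.

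The 2 rRNAs had clusters in every library. mt-Rnr2, the large-subunit rRNA, had 3215, 2965, 121, 619 and 1545 reads in stage order, or 71.7, 179, 9.30, 37.5 and 62.1 RPM. At e12.5 the first list alone gave 128 RPM and the second 43.7, so that its order against the adult turned with the list. mt-Rnr1, the small-subunit rRNA, had 928, 1233, 218, 466 and 2848 reads, or 20.7, 74.6, 16.8, 28.2 and 114 RPM. With the second list alone mt-Rnr1 had 9.63 RPM at e18.5. Both were lowest at e18.5, mt-Rnr2 was highest at e15.5 and mt-Rnr1 in the adult. Scaled per kb of gene, mt-Rnr2 stood above mt-Rnr1 at e12.5 (45.3 against 21.7 RPM per kb) and at e15.5 (113 against 78.2). It stood below at e18.5 (5.88 against 17.5), at P7 (23.7 against 29.6) and in the adult (39.2 against 120).

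Clusters were spread along the rRNAs, and the deepest lay at different places in different libraries. mt-Rnr1 had 8, 8, 4, 9 and 12 clusters in stage order and mt-Rnr2 had 16, 17, 4, 19 and 19. At e12.5 the deepest rRNA cluster had 930 reads at 2403 to 2517 in mt-Rnr2, and at e15.5 it had 981 reads at 2053 to 2086 of the same gene. At e18.5 it had 75 reads at 553 to 559 in mt-Rnr1, and at P7 it had 134 reads at 281 to 297 of that gene. In the adult it had 1073 reads at 638 to 674 of mt-Rnr1, which is the position of the let-7 8mer shown above. Each place is the span of the sites listed in the cluster.

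**Figure D2:**
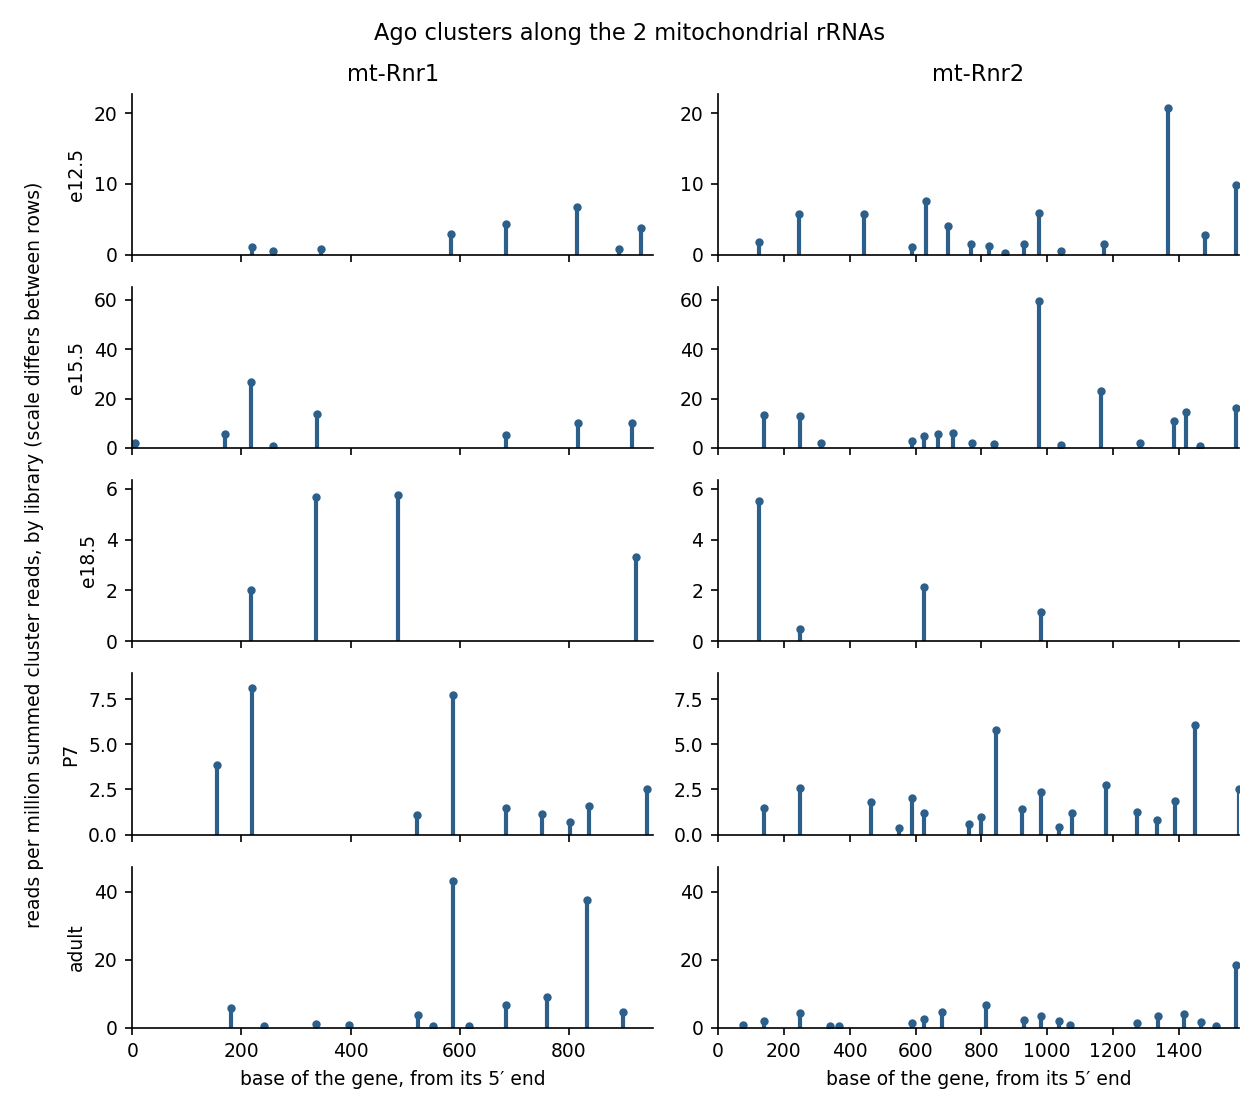
RPM of each cluster (vertical axis) along mt-Rnr1 (left) and mt-Rnr2 (right), in bases from the 5′ end of the gene, with 1 row per library and a scale that differs between rows. Each point on a line is the middle of 1 cluster, and the tallest lies in mt-Rnr2 in the upper pair of rows and in mt-Rnr1 in the lower rows.

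Of the 22 tRNAs, 10, 8, 2, 8 and 18 had a cluster in stage order, and mt-Tt, the threonine tRNA, had none in any library. No tRNA had more than 1 cluster in a library. mt-Tm, the methionine tRNA, had 60, 25, 94, 193 and 3432 reads in stage order, or 1.34, 1.51, 7.23, 11.7 and 138 RPM. It was highest in the adult, while the lowest library turned with the list, since the first alone gave it no cluster at e12.5 and e15.5 and the second none at e18.5. mt-Th, the histidine tRNA, had 267, 261, 51, 398 and 2059 reads, or 5.95, 15.8, 3.92, 24.1 and 82.7 RPM, lowest at e18.5 and highest in the adult. These mt-Th values moved with the list, which over the embryonic stages gave 11.7, 27.99 and 4.46 RPM with the first alone and 3.13, 11.3 and 1.85 with the second. mt-Ta, an alanine tRNA of the minus strand, had 198 reads in the e12.5 library, 50 at P7 and 501 in the adult, or 4.41, 3.03 and 20.1 RPM, and no cluster at e15.5 and e18.5. Its adult cluster, at 5037 to 5049, did not overlap the position of those at e12.5 and P7, at 5022 to 5035.

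mt-Tm and mt-Th held 41.2%, 63.0%, 100%, 84.1% and 77.8% of tRNA reads in stage order, and 5.32%, 5.69%, 25.6%, 29.7% and 39.0% of all chrM reads. Per kb of gene, mt-Tm reached 1999 and mt-Th 1235 RPM per kb in the adult, against 22.9 for mt-Cytb, the highest mRNA there. At e12.5 the same measure was 19.4 for mt-Tm and 88.8 for mt-Th, against 45.3 for mt-Rnr2. The value of a gene adds the highest read numbers of its clusters, and a tRNA had at most 1 cluster. Division by its short length therefore raises a tRNA against longer genes. Without that division mt-Th stood far below mt-Rnr2 at e12.5, with 5.95 against 71.7 RPM. The remaining tRNAs were at 7.96 RPM or below in every library, apart from mt-Ta.

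The mRNAs were low and, except in the adult, incompletely listed, and a library left out below had no cluster in that mRNA. mt-Cytb, the cytochrome b subunit of complex III, had 2.34 RPM at e12.5, 1.57 at e15.5, 3.15 at P7 and 26.2 in the adult, with no cluster at e18.5. Of its 652 adult reads, 568 lay in 1 cluster at 15067 to 15073, the let-7 7mer-A1 site shown above, which had 14 reads at P7 and no cluster in the embryonic libraries. mt-Co1, the catalytic subunit of cytochrome c oxidase (complex IV), had 6.35 RPM at e12.5, 5.02 at e15.5, 0.303 at P7 and 13.7 in the adult. mt-Co2 of the same complex had 3.57 RPM at e12.5, 1.69 at e15.5 and 1.21 in the adult, and was the only mRNA with a higher RPM at e12.5 than in the adult. mt-Co3 had 1.20 RPM at e12.5, 0.908 at e15.5, 0.849 at P7 and 10.1 in the adult. At e18.5 none of these 4 mRNAs had a cluster, and mt-Co2 had none at P7.

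Subunits of complex I (NADH dehydrogenase) were listed mostly in the adult. mt-Nd1 had 3.77 RPM at e12.5, 3.45 at e15.5 and 13.8 in the adult. mt-Nd5 had 0.312 at e12.5, 5.81 at e15.5, 2.36 at P7 and 13.5 in the adult, spread over 11 adult clusters. mt-Nd4 had 0.446, 2.06 and 9.68 at e12.5, e15.5 and in the adult. mt-Nd2 with 1.08, mt-Nd3 with 0.723 and mt-Nd4l with 2.61 RPM had clusters in the adult alone. mt-Nd6, the mRNA of the minus strand, had 0.787 at e15.5, 1.23 at e18.5 and 0.884 in the adult, and with 16 reads it was the one mRNA listed at e18.5. The ATP synthase subunits mt-Atp6 and mt-Atp8 had 0.357 and 0.290 at e12.5 and 3.13 and 1.29 in the adult, and mt-Atp8 also had 0.363 at e15.5.

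Along the coding sequences the 106 mRNA clusters of the 5 libraries were spread, with 22, 20, 25, 20 and 19 from the first to the last of 5 equal parts. Few clusters ran over a junction of 2 genes on the same strand, namely 1 at e12.5, 1 at e15.5, 0 of 13 at e18.5, 2 at P7 and 2 in the adult, when the span of the listed sites is taken as the cluster. Such clusters held 7.18%, 5.33%, 4.23% and 4.69% of chrM reads at e12.5, e15.5, P7 and in the adult.

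**Figure D3:**
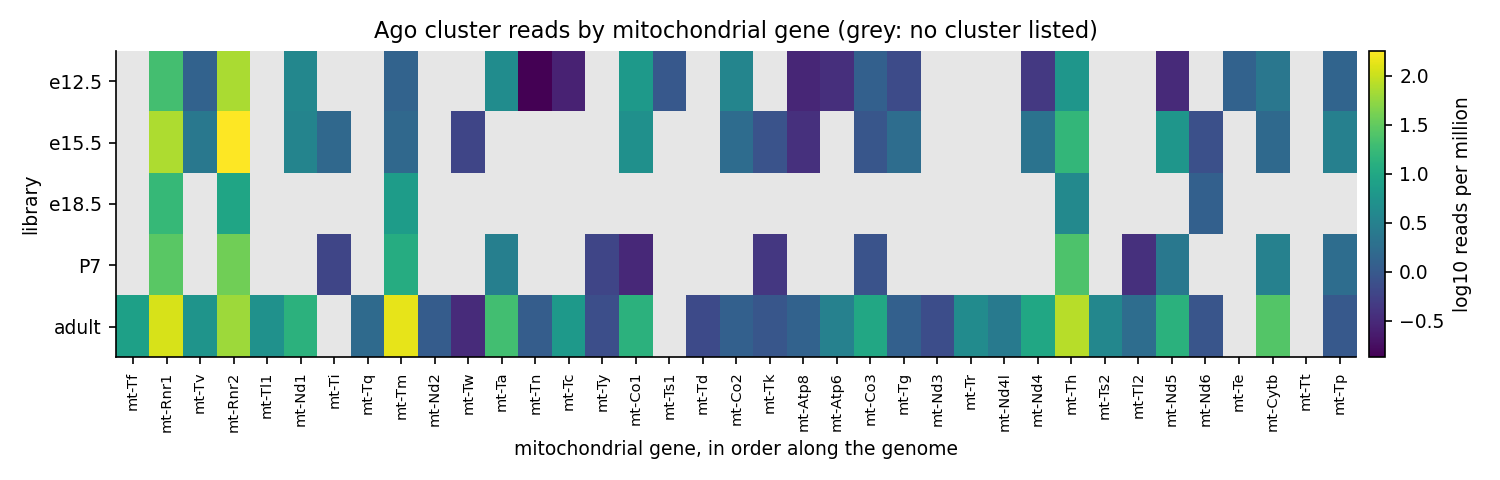
RPM (log10 colour scale) of the 37 mitochondrial genes, in their order along the genome, in each of the 5 libraries, with genes that had no cluster in grey. The columns of mt-Rnr1, mt-Rnr2, mt-Tm and mt-Th are filled in every library, and 33 of the 37 genes are filled in the adult.

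Gene by gene, the adult was set beside e12.5 and P7 beside e18.5, with 1 RPM added and genes under 10 RPM in both libraries left out. These are ratios of single libraries, and a called gene is one past 2-fold. From e12.5 to the adult, 18% of the 6415 genes tested over the whole table were over 2-fold higher and 62.4% over 2-fold lower, and the median log2 ratio was -1.65. Of the 10 mitochondrial genes tested, 9 were over 2-fold higher and 0 over 2-fold lower. Nothing can be read from this count, because 8 of the 9 were below 10 RPM at e12.5 and passed the filter only through the adult, where they are high. These were mt-Nd5 (log2 ratio 3.46), mt-Cytb (3.03), mt-Co3 (2.33), mt-Nd1 (1.63), mt-Co1 (1.004), mt-Tm (5.89), mt-Th (3.59) and mt-Ta (1.96), and 8 mRNAs and 19 tRNAs did not pass. The rRNAs passed in both libraries, mt-Rnr1 with 2.41 and mt-Rnr2 with -0.20. The direction of mt-Rnr2 turned with the list, as its levels above show. With the first list, 8 of the 10 mitochondrial genes were over 2-fold higher and 1 over 2-fold lower, against 14.3% and 72.1% of all genes. With miRNA genes left out of the totals the median of all genes moved to -0.14.

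From e18.5 to P7, 14.2% of 6659 genes were over 2-fold higher and 37.9% over 2-fold lower. Of the 4 mitochondrial genes tested, mt-Th (log2 ratio 2.35) and mt-Rnr2 (1.90) were over 2-fold higher, and mt-Rnr1 (0.72) and mt-Tm (0.63) were within 2-fold. With the second list of e18.5 alone all 4 were over 2-fold higher, against 31.9% of all genes. mt-Rnr1 alone passed the filter in both libraries, and the other 3 passed only through P7, so nothing is read from the count. No mitochondrial mRNA reached the filter in this pair.

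Most positions had a cluster in 1 library. Overlapping clusters of the 5 libraries made 161 positions, of which 102 had a cluster in 1 library, 29 in 2, 13 in 3, 10 in 4 and 7 in all 5. Of those in 1 library, 61 were in the adult, 23 at e12.5, 10 at P7, 7 at e15.5 and 1 at e18.5. The tables list no cluster below 5 reads and none without a seed match, so a missing position is one without a listed cluster. The 7 shared positions held 23.5%, 45.8%, 46.4%, 46.96% and 42.7% of chrM reads in stage order.

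The shared positions were 1 each in mt-Tm (3848 to 3884) and mt-Th (11563 to 11593), 2 in mt-Rnr1 and 3 in mt-Rnr2. Both tRNA positions were highest in the adult and none of the rRNA positions was. The mt-Rnr2 position at 2053 to 2086 had 264, 981, 15, 39 and 87 reads in stage order, or 5.88, 59.4, 1.15, 2.36 and 3.50 RPM. The mt-Rnr1 position at 206 to 297, with the recurring let-7 site, had 45, 535, 26, 198 and 147 reads, of which 439 at e15.5 and 134 at P7 were in the cluster that holds that site and the rest in a separate cluster before it. Both were highest at e15.5, the latter with 32.4 RPM. The other rRNA positions ranged from 2.55 to 12.7 RPM (956 to 1047), from 0.461 to 12.95 (mt-Rnr2, 1327 to 1353) and from 1.21 to 7.62 (mt-Rnr2, 1715 to 1735, in a stretch with a nuclear copy). The position from 956 to 1047 is also a chain of overlapping clusters rather than a single site. It runs past the end of mt-Rnr1 at 1024 into mt-Tv, the valine tRNA, where 39 of its e15.5 reads lay, and its clusters at e18.5 (989 to 995) and in the adult (961 to 976) do not overlap each other. The highest library exceeded the lowest 103-fold at mt-Tm, 51.5-fold at 2053 to 2086, 32.3-fold at 206 to 297 (26.5-fold for the cluster with the let-7 site alone), 28.1-fold at 1327 to 1353 and 21.1-fold at mt-Th, with the lists added. The mt-Tm cluster was in only 1 of the 2 lists of each embryonic table, the second at e12.5 (1.996 RPM with that list alone) and e15.5 and the first at e18.5, so its presence in every library rests on adding the lists.

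**Figure D4:**
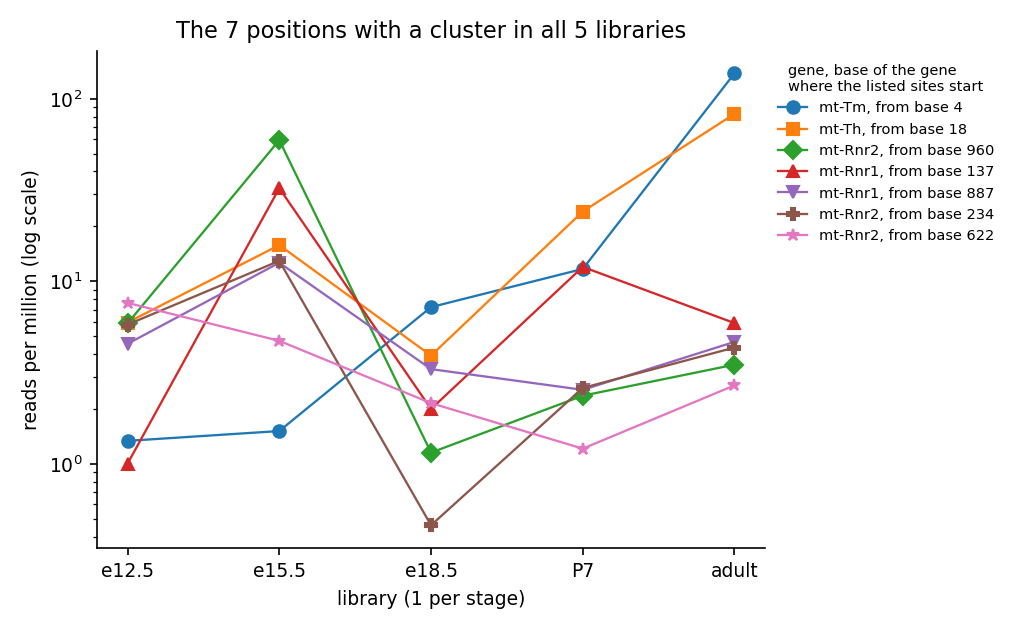
RPM (log axis) at the 7 positions with a cluster in every library, named by gene and by the base of the gene where the listed sites start, with 1 point per library joined by lines as a guide. mt-Tm stands at 1.34 at e12.5 and at 138 in the adult, and the mt-Rnr2 position from base 960 peaks at 59.4 at e15.5.

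Of 829 pairs of a site and a miRNA, 578 were in 1 library, 134 in 2, 62 in 3, 32 in 4 and 23 in all 5. The 23 lay at few places. At 282 to 287 of mt-Rnr1, 8 members with the let-7 seed (let-7a, b, c, d, f, g and i and miR-98, all of the 5p arm) shared a 6mer, and let-7j, whose seed differs at its last base, had a 7mer-m8 there. miR-186-3p paired next to it at 287 to 293. At mt-Tm, miR-21a-5p and miR-21c, which share a seed, had a 7mer-A1 and miR-345-5p a 6mer. At mt-Th, miR-27a-3p and miR-27b-3p shared an 8mer, and miR-673-5p and miR-128-3p paired with overlapping bases. In mt-Rnr2 the recurring miRNAs were miR-196a-5p, miR-196b-5p and miR-1839-5p at 1346 to 1352, miR-542-5p at 1329 to 1335, miR-340-5p at 1715 to 1721 and miR-701-5p at 2070 to 2076. A cluster usually holds sites of several miRNAs, so its reads cannot be assigned to one of them.

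Predicted energies of the recurring sites were modest. In the authors' tables the duplex of miR-21a-5p at mt-Tm had -12.9 to -11.9 kcal/mol across the libraries, that of miR-27b-3p at mt-Th -9.0 to -8.6 and that of let-7c-5p at 282 to 287 -7.0. The value for 1 site could vary between libraries, as could the listed target fragment. The miR-27b-3p fragment held 13 bases in some lists and 20 in others, and the part of this in the energies was not tested. The deposited conservation score, from 0 to 1, was 0.998 for the miR-27b-3p site at mt-Th, 0.758 for the miR-21a-5p site at mt-Tm and 0.004 for the let-7c-5p site at mt-Rnr1.

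The number of miRNAs with at least 1 site on chrM came to 240 of the 745 listed at e12.5 and 118 of 589 at e15.5, then 42 of 644 at e18.5, 209 of 743 at P7 and 313 of 585 in the adult. By their own read numbers, the 5 most abundant of them included let-7a-5p and miR-21a-5p in each embryonic library. At P7 they were miR-122-5p, the main hepatocyte miRNA, let-7c-5p, miR-30a-5p, miR-136-5p and miR-26a-5p, and in the adult let-7c-5p, miR-16-5p, miR-122-5p, miR-126a-3p and let-7b-5p. At e12.5 miR-127-3p, miR-186-5p and miR-223-3p stood among the 5, at e15.5 miR-122-5p, let-7c-5p and miR-126a-3p, and at e18.5 let-7c-5p, let-7f-5p and miR-27b-3p.

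let-7c-5p had 3 sites on chrM. In the adult, where it held 15.6% of miRNA reads, the 8mer at mt-Rnr1 lay in a cluster with 43.1 RPM, the 7mer-A1 at mt-Cytb in one with 22.8 and the recurring 6mer in one with 5.91. At P7, with 10.9% of miRNA reads, the clusters had 128, 14 and 134 reads in the same order. The 8mer was also listed at e12.5 (2.94 RPM) and the 7mer-A1 at no embryonic stage. miR-122-5p held 11.2% of miRNA reads in the adult and had a 7mer-m8 in mt-Nd1 (10.5 RPM), a 6mer in mt-Nd4 (9.48) and a 7mer-m8 in mt-Co3 (1.65). At P7, with 12.3% of miRNA reads, its one site was an 8mer opposite mt-Co1 in a cluster of 0.364 RPM, and at e15.5 it was the mt-Nd1 site with 3.45. miR-16-5p, with 14.0% of adult miRNA reads, had 1 site, a 6mer in mt-Co3 with 0.964 RPM.

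By number of clusters, the miRNAs differed little and many were tied, and ties were broken by the reads of the miRNA itself. miR-186-3p had sites in 5 clusters at e12.5 and in 4 at e15.5 and in the adult, where it held 0.0116% of miRNA reads. miR-3057-5p had sites in 5 adult clusters with 0.000607% of miRNA reads, and miR-542-5p in 2 at e18.5 with 0.00297%. At e12.5 miR-433-3p, miR-200c-3p, miR-200b-3p and miR-429-3p were 4 of 7 with 3 clusters each. At e15.5 miR-30f and miR-3094-3p had 3, and miR-30a-5p and miR-30e-5p were 2 of 18 with 2. At P7 no miRNA had more than 3 clusters and 20 had 3, of which let-7c-5p, miR-30a-5p, miR-30e-5p, let-7b-5p and let-7f-5p come first only by their own reads. In the adult miR-3068-5p, miR-1843b-5p and miR-877-5p were, with miR-186-3p, 4 of 6 with sites in 4 clusters each.

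The share of chrM clusters with a site of one of the 100 most abundant miRNAs was 47.1%, 40.4%, 30.8%, 43.1% and 33.9% in stage order, against 39.4%, 45.6%, 41.6%, 41.3% and 45.3% of the other clusters. The Wilson interval in the adult, 25.9 to 42.96%, lay below the value of the other clusters, and the intervals of the remaining libraries held it. This comparison was not tested.

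No difference in the share of clusters with an 8mer site passed the test. In stage order it was 23.5%, 17.02%, 7.69%, 31.4% and 22.6% on chrM, against 24.2%, 21.8%, 21.3%, 27.03% and 24.1% elsewhere. Fisher's exact tests (two-sided, chrM clusters against all other clusters within a library, Benjamini-Hochberg over 5 libraries) gave adjusted p between 0.88 and 1. The chrM intervals were wide, from 15.9 to 31.1% in the adult and from 1.37 to 33.3% at e18.5. With sites of the 100 most abundant miRNAs alone, the share was higher on chrM in all 5 libraries, by 4.73 percentage points in the adult to 11.5 at e12.5, with adjusted p between 0.34 and 0.52. By site and miRNA pairs, 7mer-A1 sites made up 22.04 to 48.8% on chrM against 16.3 to 16.9% elsewhere, and 6mer sites 34.9 to 48.9% against 51.6 to 53.2%. The 48.8% and the 34.9% were both from e18.5, with 43 pairs on chrM. The remaining libraries ran from 22.04 to 25.2% for 7mer-A1 and from 44.5 to 48.9% for 6mer sites. The values of single pairs were not tested, since pairs of 1 cluster share its sequence.

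The median predicted duplex was weaker on chrM in each library, and in the adult strong duplexes were also rarer by test. In stage order the median energy was -8.5, -7.9, -9.0, -8.3 and -8.8 kcal/mol on chrM, against -10.3, -9.8, -10, -10.5 and -10.7 elsewhere. The share of clusters with a duplex at or below -20 kcal/mol was 2.61% on chrM (3 of 115, Wilson interval 0.891 to 7.39) against 11.5% elsewhere in the adult, with an adjusted p of 0.0053 by the same Fisher's exact test, and with the 100 most abundant miRNAs alone the adjusted p was 1. The share was 5.88% against 11.2% at e12.5 and 9.80% against 12.99% at P7. It was 0 of 47 against 7.36% at e15.5 and 0 of 13 against 8.11% at e18.5. These 4 libraries had adjusted p of 0.41, 0.68, 0.12 and 0.68 in the order given (Fisher's exact test). The count of 0 allows a share of up to 7.56% at e15.5 and 22.8% at e18.5, as the upper bound of the Wilson interval.

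Base composition also differed between chrM and the rest. The listed target fragments held 42.7%, 39.9%, 39.2%, 43.7% and 43.5% G and C on chrM in stage order, against 50.9%, 48.3%, 50.4%, 52% and 52.25% elsewhere, and the part of this in the difference was not tested. chrM clusters also held fewer pairs of site and miRNA, 4.29 against 5.17 per cluster in the adult. Among sites with a fragment of at least 20 bases, the medians were -9.5 on chrM and -12.0 elsewhere in the adult, against -8.8 and -10.7 over all fragments.

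**Figure D5:**
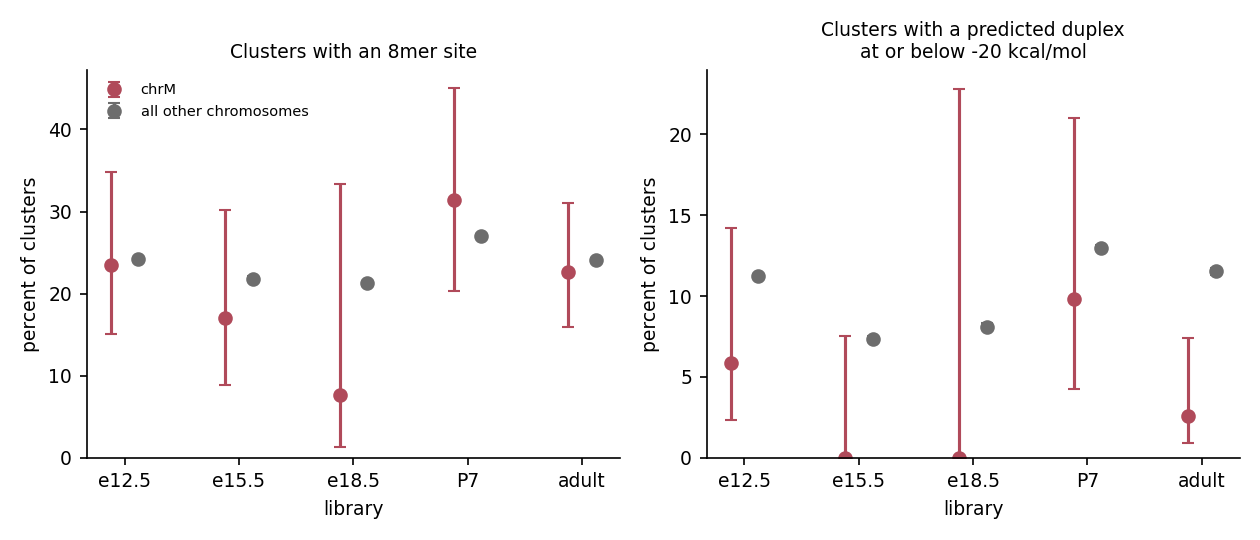
Percent of clusters with an 8mer site (left) and with a predicted duplex at or below -20 kcal/mol (right) on chrM and on all other chromosomes in each library, with Wilson 95% intervals for counting error. The chrM intervals hold the value of the other clusters on the left, and on the right the adult interval ends at 7.39%, below the 11.5% of the other clusters.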

How the data were processed

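Ago HITS-CLIP libraries of mouse liver at 5 stages were analysed from 1 table of miRNA-target interactions each. Reads were prepared by the authors with FASTX-Toolkit and mapped with Bowtie (versions not given in the sources used here), overlapping reads were grouped into clusters, these were searched for seed matches, and the submitters' processing notes name the builds mm9 and mm10. All fragments listed on chrM were found in GRCm38 at the listed places. The deposited read number of a cluster is a signal, the highest number of reads in it, not scaled to depth and at least 5. The deposited duplex energy and conservation are scores, and how the latter was made is not given in the sources used here. The number of reads of each miRNA was taken from the entry names, which the tables do not explain.

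The embryonic tables hold 2 lists each, whose reads were added. The methods name 2 biological replicates, which the labels do not separate. Clusters whose sites overlap on a strand were joined, and a cluster was given the gene of GENCODE vM21 at the middle of its sites. Reads were scaled to 1000000 summed cluster reads (RPM), which numbered between 13008703 and 44867326 per library. The tables hold the clusters with a site, so this sum falls short of the sequencing depth, and the study's own library totals served as an alternative. Nuclear copies were found with blastn 2.17.0. Shares have Wilson 95% intervals, and PCR reads are not independent molecules, so they cover counting error only. Chromosome M clusters were compared with all others by Fisher's exact test (threshold 0.05). The test was checked on simulated independent clusters, but only with shares higher than those of strong duplexes. Alternatives were a minimum of 10 reads, either list alone, other totals, other assignments to genes, no filter and the exclusion of nuclear copies.

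All 37 genes were accounted for, and values were given for the mRNAs, rRNAs and the 3 tRNAs with the highest mean. Positions were named by mean RPM, up to 10, among those in all 5 libraries, which were 7. miRNAs were named by the 5 with most reads and the 5 with sites in most clusters in each library, and others because their sites recurred in all 5 libraries, as was seen from the values. The members and lists were chosen with earlier results of these data known. Python 3.11.15, numpy 2.4.6, pandas 2.3.3, scipy 1.17.1 and matplotlib 3.10.9 were used.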

Additional observations from a re-analysis of the deposited data

How the results depend on the processing

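The adult had the most and e18.5 the fewest chrM RPM under all 7 settings run over all libraries and with either list of the embryonic tables alone. In stage order the values were 89.1, 256, 37.5, 83.5 and 394 without stretches with a nuclear copy, 116, 245, 36.4, 96.3 and 428 without the deepest chrM cluster of each library, and 90.5, 190, 25.7, 98.2 and 461 with the study's library totals. The study lists a second e18.5 total, of a library it names a replicate, and with both added, chosen after seeing the data, e18.5 had 4.88. They were 295, 630, 87.9, 409 and 2812 with miRNA genes left out of the total and 588, 1024, 145, 588 and 4186 with the total of mRNA and chrM clusters, the last 2 also chosen after seeing the data. The embryonic values were 225, 345 and 48.6 with the first list alone and 93.8, 289 and 24.4 with the second.

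The chrM share of clusters without nuclear copies was 0.0168% at e12.5, 0.0382% at e15.5, 0.0289% at P7 and 0.0838% in the adult, and was 0.0470% and 0.0836% at e12.5 and e15.5 with the first list. The plus strand held 83.8%, 95.7%, 84.6%, 90.2% and 89.6% when clusters were counted in place of reads. It held 91.7% and 100% of reads at e12.5 and e15.5 with the first list, 88.5%, 98.2% and 86.4% at e12.5, e15.5 and e18.5 with the second, and 97.05% at e18.5 with at least 10 reads.

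The tRNA share of chrM reads was 29.6%, 20.99%, 38.7%, 65.3% and 68.9% with the highest cluster of each gene alone, which gives long genes less weight. With genes assigned on either strand it was 15.3% at e12.5, 35.8% at e18.5 and 40.6% at P7. It was 10.04% and 8.10% at e12.5 and e15.5 with the first list, and 16.3% at e12.5 and 7.58% at e18.5 with the second, which holds no mt-Tm cluster there.

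The difference in 8mer share, which passed no test, turned positive with distinct sites at e12.5 (0.258 percentage points), e15.5 (1.12) and in the adult (0.118), and with the 100 most abundant miRNAs at e12.5 (11.5), e15.5 (10.5), e18.5 (8.34) and in the adult (4.73). The adult energy difference was -3.07 percentage points with those miRNAs alone and no longer passed Fisher's exact test (adjusted p = 1), with 39 chrM clusters left. Over the alternatives its adjusted p by Fisher's exact test ranged from 0.00075 to 1. For adult over e12.5, 21 of 35 mitochondrial genes were over 2-fold higher and 2 lower without a filter (12.01% of all genes higher and 42.2% lower), and 18 of 19 higher without miRNA genes (32.8% higher). For P7 over e18.5, 6 of 15 were higher and 1 lower without a filter (22.3% and 26.7%), 6 of 6 higher without miRNA genes (34.4%) and 4 of 4 with the second list (31.9%). With a filter, genes could pass only through the library where they are high, so nothing is read from these counts. The cause of the changes between settings was not tested. No paired analysis was possible because each stage has 1 library. At e18.5, 13 clusters and 567 reads limit every share.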
